A study of Mus musculus with 16 samples.

Results

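Hedgehog reception and response genes were followed through the chemical conversion of mouse fibroblasts to neural stem-like cells. The set holds 9 of the 37991 genes of the deposited count table, found by symbol: the receptor Ptch1, the decoy receptor Hhip, the transducer Smo, the co-receptors Gas1, Boc and Cdon, and the transcription factors Gli1, Gli2 and Gli3. All 9 were found, and all 9 passed the low-count filter. RNA was sequenced in 16 libraries. The starting cells, tdMEFs, are embryonic fibroblasts of 129xC57BL6 background carrying a ROSA26 tdTomato reporter that Fsp1-Cre turns on, so the trace marks cells that have used the Fsp1 promoter. Untreated tdMEFs in MEF medium at 20% O2 (D0) gave 2 libraries. Cells taken after 4, 8 and 12 days in M9 medium at 5% O2 (D4, D8 and D12) gave 3 libraries each. M9 medium holds the GSK3 inhibitor CHIR99021, the BMP receptor inhibitor LDN193189, the TGF-beta receptor inhibitor A83-01, the Hedgehog agonist Hh-Ag1.5, retinoic acid, SMER28, RG108, Parnate and bFGF. Medium and oxygen changed together between D0 and the treated days, so the agents of M9 and the oxygen level cannot be told apart. Reprogrammed cells grown as ciNSLC, of the same background and trace, gave 3 libraries, and their culture medium is not given in the sources used here. The neural controls were SCR029, a neural stem cell line from C57BL6 cortex of embryonic days 15 to 18, and primary neural progenitors from E13.5 cortex (priNPC), with 1 library each.

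In the Hedgehog pathway, a secreted ligand binds Ptch1 together with Gas1, Boc or Cdon at the primary cilium. Binding relieves Ptch1's inhibition of Smo, and active Smo turns Gli2 and Gli3 from repressors into activators. Gli1, Ptch1 and Hhip are themselves induced by Gli activators, so their RNA is widely used as a readout of pathway activity, while Ptch1 and Hhip dampen the signal. In the developing neural tube the pathway patterns ventral progenitors, which express genes such as Olig2 and Nkx2-2.

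The libraries held 29.4 to 55.5 M counts (M, mega), of which 14.3% to 53% came from the 2 mitochondrial rRNA genes. Per the sample descriptions, replicate 1 of each group and SCR029 belong to batch 1, and replicates 2 and 3 and priNPC to batch 2. Within D4, D8 and D12, mitochondrial rRNA took 52.7%, 49.7% and 33.2% of the counts in the batch 1 libraries and 16.5% to 28.4% in the batch 2 libraries. Markers of the labelled cell types were present. The summed level of 8 fibroblast markers was 916 to 8453 CPM (counts scaled to a common library total, here with TMM factors) in treated libraries, 15.7 to 112 CPM in ciNSLC, 8.66 CPM in SCR029, 53.8 CPM in priNPC and 19791 and 23741 CPM at D0. The summed level of 8 neural stem markers was 3983 to 5172 CPM in ciNSLC, 3892 CPM in SCR029, 3718 CPM in priNPC and 132 and 91 CPM at D0. Replicate 2 of D0 also held 3373 CPM of 8 myeloid markers, against 11.6 CPM in replicate 1 of D0, 10.8 to 228 CPM in treated cells and at most 2.53 CPM in ciNSLC and the controls. In these bulk samples fewer cells of a type and less RNA per cell cannot be told apart.

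The order of the 9 genes by level per kilobase of the deposited feature length changed over the treatment. At D0, Gas1 stood first at 72.2 ± 8.37 CPM per kb (SD, n = 2), followed by Smo at 26.7 ± 4.38 and Cdon at 25 ± 1.74 CPM per kb, which lay within each other's spread. Gli3 at 13.7 ± 2.41 and Boc at 10.6 ± 3.12 CPM per kb were also within their spread of each other, and Gli2 and Ptch1 followed at 5.81 ± 1.73 and 3.26 ± 0.561 CPM per kb. Gli1 and Hhip stood last, at 0.313 ± 0.375 and 0.115 ± 0.0482 CPM per kb. At D12, Ptch1 led at 33.6 ± 6.23 CPM per kb and Smo was next at 24.3 ± 1.6 CPM per kb (SD, n = 3). Hhip, Gas1, Gli3, Gli1, Gli2, Cdon and Boc then lay between 10.8 and 4.64 CPM per kb. In ciNSLC the order was again led by Gas1 at 43.3 ± 25.3 CPM per kb and Smo at 27.8 ± 7.17 CPM per kb, with Gli2, Hhip and Gli1 at the low end at 1.14 ± 0.125, 0.8 ± 0.337 and 0.00784 ± 0.0136 CPM per kb (SD, n = 3). Both controls shared with ciNSLC a high Gas1, at 73.6 CPM per kb in SCR029 and 56 CPM per kb in priNPC, and the 2 lowest genes, Gli1 and Hhip.

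**Figure D1:**
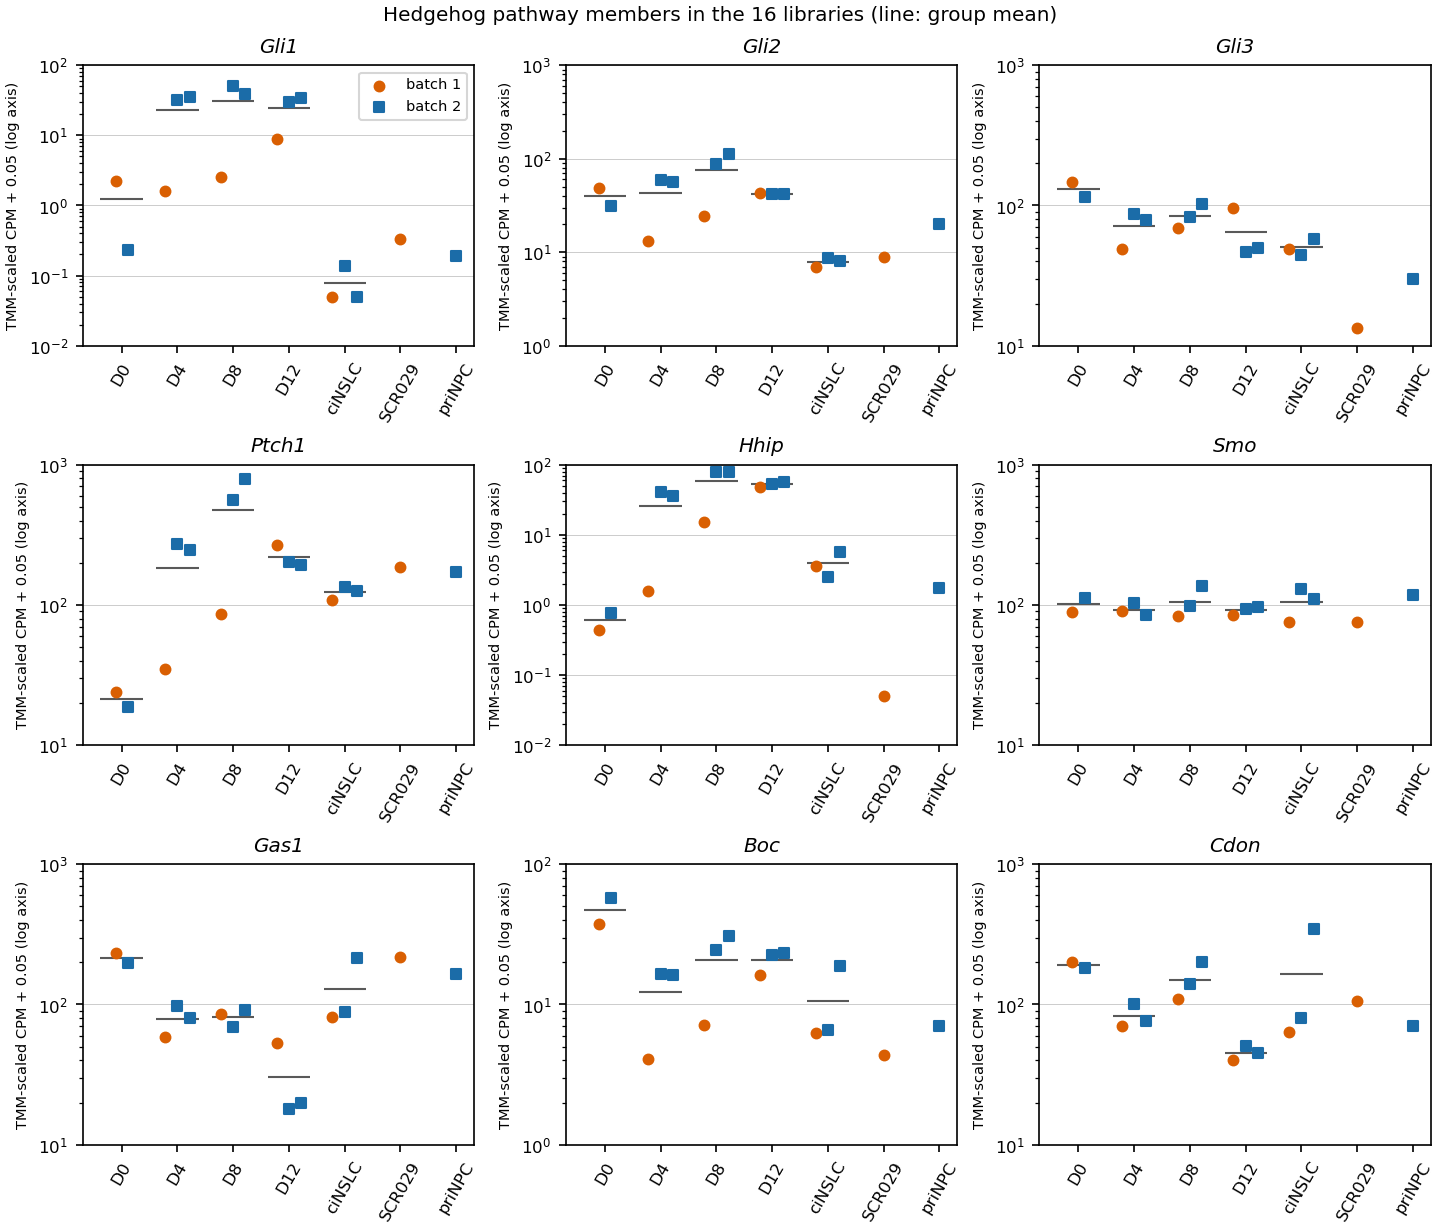
TMM-scaled CPM plus 0.05 on a log axis for the 9 genes in the 16 libraries, each point 1 library coloured by batch and each line a group mean. Gli1 in the batch 1 libraries of D4 and D8 (1.58 and 2.47 CPM) lies near the batch 1 library of D0 (2.19 CPM), while the batch 2 libraries of D4, D8 and D12 lie between 29.8 and 51.1 CPM.

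The receptor Ptch1 and the decoy receptor Hhip, both feedback inhibitors that bind the ligand, were higher in M9-treated cells than at D0. Hhip passed the test on all 3 days and Ptch1 on D8 and D12. Their promoter windows are given here because these are the genes that rose together, beside that of Gli2, the member with a match to a Gli motif. The windows run from 250 bases before to 50 bases after the annotated start in RefSeq's mouse GRCm38.p6 annotation, at chr13:63565686-63565985 (minus strand), chr8:80057959-80058258 (minus strand) and chr1:119053570-119053869 (minus strand), and are printed in the direction of the gene. The capitals in the Gli2 window mark the motif match, and the other windows hold none.
Ptch1: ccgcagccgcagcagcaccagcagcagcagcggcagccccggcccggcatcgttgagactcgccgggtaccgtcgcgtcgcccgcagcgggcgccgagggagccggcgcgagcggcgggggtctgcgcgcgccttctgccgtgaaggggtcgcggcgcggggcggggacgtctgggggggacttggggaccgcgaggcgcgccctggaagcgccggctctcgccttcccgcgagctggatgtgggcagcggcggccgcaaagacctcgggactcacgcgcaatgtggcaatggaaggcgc
Hhip: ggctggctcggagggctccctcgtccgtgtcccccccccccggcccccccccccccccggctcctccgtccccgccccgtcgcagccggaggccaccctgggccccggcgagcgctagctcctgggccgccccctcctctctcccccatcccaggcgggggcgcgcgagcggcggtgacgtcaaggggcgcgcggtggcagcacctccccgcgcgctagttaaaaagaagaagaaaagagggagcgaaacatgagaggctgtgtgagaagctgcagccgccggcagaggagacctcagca
Gli2: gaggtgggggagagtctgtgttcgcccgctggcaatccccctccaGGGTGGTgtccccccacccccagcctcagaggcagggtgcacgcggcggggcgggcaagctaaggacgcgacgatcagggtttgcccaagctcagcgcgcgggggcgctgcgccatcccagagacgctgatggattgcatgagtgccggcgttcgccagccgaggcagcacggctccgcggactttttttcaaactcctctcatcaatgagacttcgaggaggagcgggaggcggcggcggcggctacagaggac
The Gli consensus GACCACCCA was sought on both strands, as was its inner part ACCACCC, which any full match also contains. The full motif was in 0 of the 7 windows the table holds for the set (Ptch1, Hhip, Smo, Gas1, Cdon, Gli2 and Gli3) and in 0.253% of all 32851 windows. The inner motif was in 1 of 7, on the minus strand of Gli2 205 bases before its start, and in 4.61% of all windows. Letters absent from these 300 bases say nothing of sites elsewhere. The Ptch1 window had 47 CpG dinucleotides and 76.3% G and C, that of Hhip 30 and 73.7%, and that of Gli2 28 and 67.3%, beside medians of 7 CpG and 52.7% over all windows.

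Ptch1 (mm9 chr13:63610261-63674474) had 24.1 and 18.8 CPM at D0, 34.7, 272 and 247 CPM in the D4 libraries, 86.9, 563 and 787 CPM in the D8 libraries and 268, 203 and 192 CPM in the D12 libraries. Every treated library was above both D0 libraries, and the batch 1 libraries of D4 and D8 were the lowest of the treated ones. In edgeR's quasi-likelihood test, with p-values adjusted by Benjamini-Hochberg over all genes tested, the log2 change was 4.48 ± 0.96 (SE) at D8 (adjusted p = 0.015) and 3.37 ± 0.9 at D12 (adjusted p = 0.032), and 3.1 ± 0.89 at D4, which missed the threshold of 0.05 (adjusted p = 0.054). Hhip (mm9 chr8:82490014-82581905) had 0.396 and 0.73 CPM at D0, 1.51, 40.6 and 36.3 CPM in the D4 libraries, 15.2, 79.3 and 79.8 CPM in the D8 libraries and 48.7, 53.4 and 57 CPM in the D12 libraries. No treated library overlapped D0, and at D12 the batch 1 library was close to the others. The log2 change of Hhip was 5.55 ± 1.22 at D4, 6.7 ± 1.29 at D8 and 6.57 ± 1.28 at D12, with adjusted p = 0.016, 0.0088 and 0.0072 in that order by the same edgeR test. These calls rest on both D0 libraries. Without D0 replicate 1 or 2 in turn, adjusted p was 0.12 and 0.095 for Hhip at D4, 0.075 and 0.062 at D8, and 0.069 and 0.056 at D12. For Ptch1 it was 0.088 and 0.12 at D8 and 0.15 and 0.18 at D12, where leaving out D12 replicate 2 or 3 also gave 0.06 and 0.059 (all by edgeR). With limma voom in place of edgeR the calls of Hhip were lost on all 3 days, with adjusted p = 0.19, 0.075 and 0.054.

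Gli1 (mm9 chr10:126766945-126778645), the Gli factor that acts as an activator and whose own RNA is induced by the pathway, split by batch. It had 2.19 and 0.182 CPM at D0, 1.58, 31.6 and 34.9 CPM in the D4 libraries, 2.47, 51.1 and 39.2 CPM in the D8 libraries and 8.87, 29.8 and 34.6 CPM in the D12 libraries. The 6 treated batch 2 libraries were all far above D0, while replicate 1 of D4 was below and replicate 1 of D8 barely above replicate 1 of D0. Over both batches the log2 change was 4.24 ± 1.5 at D4, 4.68 ± 1.53 at D8 and 4.34 ± 1.51 at D12, and none passed edgeR's quasi-likelihood test (adjusted p = 0.12, 0.09 and 0.089). Without replicate 1 of D4 the changes at D8 and D12 passed (adjusted p = 0.044 and 0.045), as they did without replicate 1 of D8 (0.046 for both). In batch 2 alone, with 1 D0 library assumed to vary like the other groups, edgeR gave adjusted p = 9.3e-05, 7.6e-05 and 6.2e-05 for D4, D8 and D12. Gli1 overlaps the antisense gene Arhgap9, and the counting is not stated to use strand. Arhgap9 reached its highest count, 359, in replicate 2 of D0, where Gli1 had 7 counts.

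Of the 9 genes, 1 passed at D4, 2 at D8 and 4 at D12 against D0. Over all 17455 genes tested, 7.22%, 7.15% and 10.5% passed in those comparisons. At D4 and D8 the genes that passed were all higher, where 3.54% and 4.1% of all genes were higher and 3.68% and 3.05% lower, while at D12 they were 2 higher (Ptch1 and Hhip, background 5.81%) and 2 lower (Gas1 and Cdon, background 4.73%). The median log2 change of the 9 was -0.12, 0.06 and -0.14 at D4, D8 and D12, beside 0.02, 0.02 and 0.01 over all genes tested.

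The treatment effect on Gli1 differed between the batches. Its level on D4, D8 and D12 was 0.723, 1.13 and 4.06 times that of D0 within batch 1, where each group has 1 library. Within batch 2, which has 1 D0 library, it was 182, 248 and 176 times that of D0. The D0 library held 105 Gli1 counts in batch 1 and 7 in batch 2. These ratios and the term that follows also carry that difference. With a batch-by-treatment term in edgeR's quasi-likelihood fit, added after the values were seen, the log2 effect in batch 1 minus that in batch 2 was -6.2 ± 1.29 (SE, adjusted p = 0.034). Among the 9 genes Gli1 was the 1 that passed this test, and 3.02% of all genes did. The other response genes leaned the same way without passing it, with -1.59 ± 0.89 for Ptch1 (adjusted p = 0.34) and -1.54 ± 1.02 for Hhip (adjusted p = 0.43). The factor Gli2, at -1.42 ± 0.58, did not pass it either (adjusted p = 0.2).

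Within batch 1 the response genes were higher on later days. Hhip stood at 3.81, 38.5 and 123 times its D0 level on D4, D8 and D12 in batch 1, against 52.7, 109 and 75.7 times in batch 2. Ptch1 stood at 1.44, 3.61 and 11.1 times its D0 level on D4, D8 and D12 in batch 1, and at 13.8, 35.8 and 10.5 times in batch 2. At D12 the ratio of Ptch1 was close in both batches, that of Hhip was the higher one in batch 1, and Gli1 still differed. The Hhip ratios carry the D0 levels, 0.396 CPM in batch 1 and 0.73 CPM in batch 2. Its level at D12 was 48.7 CPM in batch 1, below the 53.4 and 57 CPM of batch 2. Several other measures moved with the batch in treated cells. The fibroblast markers summed to 916 to 4042 CPM in the 3 treated batch 1 libraries and 4952 to 8453 CPM in the 6 treated batch 2 libraries, with 8 of 8 lower by median in batch 1 and 4 of 8 not overlapping. A list of 12 primary cilium transport genes summed to 250 to 305 CPM in batch 1 and 332 to 402 CPM in batch 2, with 6 of 12 lower in every batch 1 library. Over all 13143 genes at 1 CPM or more on average, 6382 were lower by median in batch 1 and 15.7% were lower in every batch 1 library. By median, 9 of the 9 members, 8 of 8 myeloid markers and 2 of 8 neural stem markers were lower in batch 1. The mitochondrial rRNA shares given above were highest in the same batch 1 libraries. Their part in the result was not tested.

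**Figure D2:**
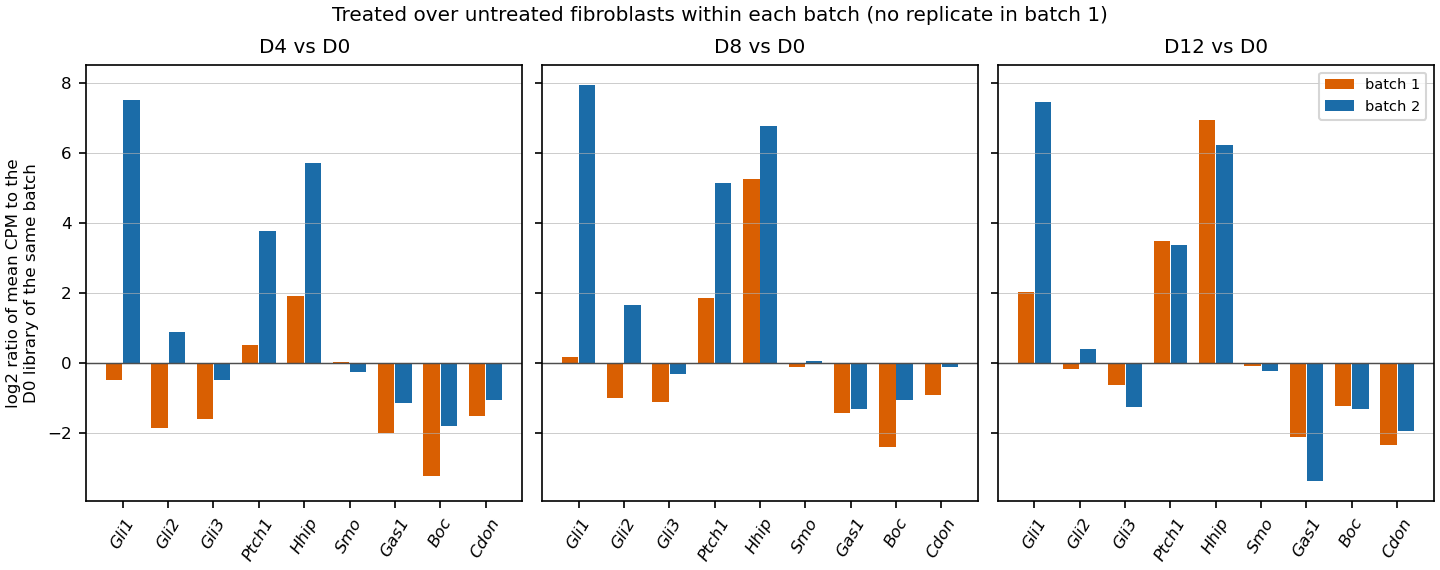
Log2 ratio of the mean TMM-scaled CPM of the D4, D8 or D12 libraries to the D0 library of the same batch, for the 9 genes, with batch 1 as 1 library per group and batch 2 as 1 D0 library and 2 libraries per treated day. Gli1 is at -0.47, 0.18 and 2.02 in batch 1 and at 7.51, 7.95 and 7.46 in batch 2, while Gas1, Boc, Cdon and Gli3 are below 0 in both batches on all 3 days.

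Of the co-receptors that bind ligand beside Ptch1, Gas1 and Cdon fell at D12, and Boc did not pass on any treated day. Gas1 (mm9 chr13:60275766-60278726), a membrane-anchored co-receptor, had 231 and 196 CPM at D0, 58.3, 96.9 and 80 CPM in the D4 libraries, 86.1, 68.7 and 91.1 CPM in the D8 libraries and 53.3, 17.9 and 19.9 CPM in the D12 libraries. All 9 treated libraries were below both D0 libraries, and D12 held the lowest values. Its log2 change at D12 was -2.82 ± 0.5 (SE, adjusted p = 0.0043, edgeR's quasi-likelihood test), while -1.45 ± 0.48 at D4 and -1.38 ± 0.48 at D8 did not pass (adjusted p = 0.096 and 0.11). The D12 call of Gas1 was kept in all 26 alternative fits.

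Cdon (mm9 chr9:35228713-35315236), an immunoglobulin-family co-receptor, had 202 and 183 CPM at D0, 70.6, 101 and 76.3 CPM in the D4 libraries, 109, 140 and 200 CPM in the D8 libraries and 40.3, 50.4 and 45.4 CPM in the D12 libraries. The D4 and D12 libraries were all below D0, and the D8 libraries reached into the D0 range. Its log2 change at D12 was -2.09 ± 0.56 (SE, adjusted p = 0.032 by edgeR), and no single library could be left out of D0 or D12 without losing the call (adjusted p 0.065 to 0.12). Boc (mm9 chr16:44485158-44559010), the close relative of Cdon, had 37.6 and 57.3 CPM at D0, 4.03, 16.4 and 16.2 CPM in the D4 libraries, 7.07, 24.5 and 30.5 CPM in the D8 libraries and 16.2, 22.5 and 23.4 CPM in the D12 libraries. The treated libraries did not overlap D0, yet the log2 change at D4, -1.95 ± 0.66 (SE), did not pass edgeR's test (adjusted p = 0.1). It passed with a batch term (adjusted p = 0.005). The summed fibroblast markers given above were also lower in the treated libraries than at D0, and their part in these results was not tested.

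Smo (mm9 chr6:29685694-29711365), the receptor through which Hh-Ag1.5 acts, stayed within a narrow range of levels. It had 89.3 and 113 CPM at D0, 90.6, 103 and 84.1 CPM in the D4 libraries, 83.1, 97.6 and 136 CPM in the D8 libraries, 85.1, 94 and 96.6 CPM in the D12 libraries and 76, 130 and 110 CPM in ciNSLC, against 76.1 CPM in SCR029 and 117 CPM in priNPC. Every treated group and ciNSLC overlapped D0, while SCR029 lay below both D0 libraries and priNPC above both. None of the 10 comparisons passed edgeR's test for Smo.

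Gli2 and Gli3 make the proteins through which Smo acts first, Gli2 mainly as an activator and Gli3 mainly as a repressor. Gli2 (mm9 chr1:120730709-120950196) had 48.3 and 31.4 CPM at D0, 13.3, 58.7 and 56.9 CPM in the D4 libraries, 24.2, 88.3 and 112 CPM in the D8 libraries and 42.5, 42 and 41.7 CPM in the D12 libraries. In batch 1 Gli2 was below D0 on D4 and D8, at 0.276 and 0.501 times D0, and in batch 2 above it, at 1.84 and 3.18 times D0. No treated day passed edgeR's test over both batches. Gli3 (mm9 chr13:15555068-15821859) had 148 and 115 CPM at D0, 49, 86.6 and 78.4 CPM in the D4 libraries, 69, 83.3 and 102 CPM in the D8 libraries and 96, 46.9 and 50.1 CPM in the D12 libraries. All 9 treated libraries were below D0, with log2 changes of -0.88 ± 0.33 at D4 and -1.03 ± 0.33 at D12 that did not pass (adjusted p = 0.14 and 0.067 by edgeR). Without replicate 1 of D12, the highest D12 library, the D12 change passed (adjusted p = 0.01).

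Between the treated days themselves, none of the 9 genes passed edgeR's quasi-likelihood test in D8 against D4, D12 against D8 or D12 against D4, where 0.16%, 0.16% and 3.87% of all genes passed. At an unadjusted p under 0.05 the counts were 0, 2 and 1. The 2 between D12 and D8 were Cdon (log2 -1.72 ± 0.52, adjusted p = 0.21) and Gas1 (log2 -1.43 ± 0.45, adjusted p = 0.23), and that between D12 and D4 was Gas1 (log2 -1.37 ± 0.45, adjusted p = 0.12). DESeq2 called 0, 1 and 1 of the 9 in these comparisons, all lower, and limma voom 0 in each. The shares above are edgeR's and are no background for these counts.

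In ciNSLC the Gli1 RNA of the treated cells was all but gone, Hhip and Gli2 were lower than at D12, and Ptch1 stayed above D0. Gli1 had 0, 2 and 0 counts in the 3 ciNSLC libraries, or 0, 0.089 and 0 CPM, against 8.87, 29.8 and 34.6 CPM at D12. Summed over libraries these were 2 counts in ciNSLC and 2870 at D12, a ratio of 0.000863 (95% counting interval 0.000104 to 0.00312), and edgeR's adjusted p was 0.0022. Against D0, with 112 counts, the ratio was 0.0162 (0.00194 to 0.06), and edgeR's test did not pass (adjusted p = 0.06), though it did with a batch term (adjusted p = 0.013, edgeR), as did DESeq2 (adjusted p = 0.009). Both intervals cover counting error only.

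Hhip had 3.53, 2.49 and 5.72 CPM in ciNSLC, against 48.7, 53.4 and 57 CPM at D12, a log2 change of -3.76 ± 0.91 (SE, adjusted p = 0.0091, edgeR). The groups were far apart, yet each ciNSLC library was also above both D0 libraries, and the change against D0, 2.81 ± 1.1, did not pass (adjusted p = 0.076, edgeR), though it did with a batch term (adjusted p = 0.039). Gli2 had 6.97, 8.68 and 7.92 CPM in ciNSLC, below every D12 and D0 library. Its log2 change was -2.42 ± 0.56 against D12 (adjusted p = 0.0068) and -2.34 ± 0.59 against D0 (adjusted p = 0.0099) by edgeR's test. Gli3 had 48.7, 44.3 and 57.5 CPM in ciNSLC, overlapping D12 and below D0, with a log2 change of -1.39 ± 0.33 against D0 (adjusted p = 0.007). Ptch1 had 109, 134 and 126 CPM in ciNSLC, below all 3 D12 libraries and above both D0 libraries. Its log2 change against D0 was 2.52 ± 0.86 (SE, adjusted p = 0.044 by edgeR), and this call was lost in 12 of 26 alternative fits, with adjusted p of up to 0.2. Without D0 replicate 1, adjusted p was 0.069 for Gli2 and 0.062 for Gli3 against D0 (edgeR).

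The co-receptors went different ways in ciNSLC, and replicate 3 stood apart in all 3. The sample descriptions label the ciNSLC libraries E13_1, ciN_1_P4 and ciN_2_P2, in the order of the replicates. Whether these labels stand for separate lines or passages is not explained. Gas1 had 81.4, 88.5 and 214 CPM in ciNSLC, above every D12 library, with a log2 change of 2.08 ± 0.46 against D12 (SE, adjusted p = 0.0051, edgeR). Cdon had 63.1, 80.3 and 348 CPM in ciNSLC, also above every D12 library, with 1.85 ± 0.52 against D12 (adjusted p = 0.019). Without ciNSLC replicate 3 the change of Cdon was 0.71 and did not pass (adjusted p = 0.082), while that of Gas1 passed in all 26 alternative fits. Boc had 6.23, 6.54 and 18.8 CPM in ciNSLC, below D0 in every library, with a log2 change of -2.17 ± 0.66 against D0 (adjusted p = 0.027, edgeR). That call was lost without ciNSLC replicate 1 or 2 (adjusted p = 0.097 for both) or D0 replicate 2 (0.14).

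In numbers, 4 of the 9 genes passed in ciNSLC against D0 (1 higher and 3 lower), where 28.2% of all genes passed (11.7% higher and 16.5% lower). Against D12, 5 of 9 passed (2 higher and 3 lower), where 27.5% of all genes passed (11% higher and 16.5% lower). The median log2 change of the 9 was -0.74 against D0 and -0.84 against D12, beside -0.07 and -0.09 over all genes tested. Fibroblast markers summed to 15.7 to 112 CPM in ciNSLC and 4042 to 6936 CPM at D12, and their part in these results was not tested.

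**Figure D3:**
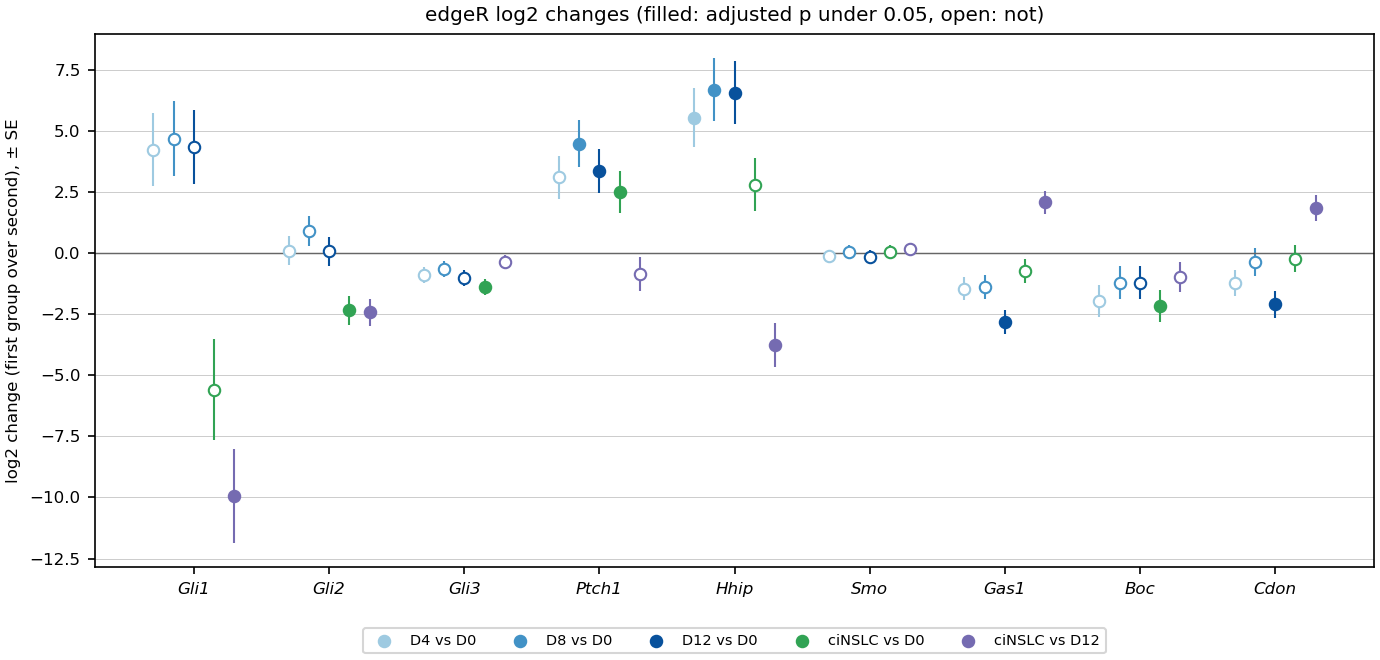
Log2 change with its SE from edgeR for the 9 genes in 5 comparisons, filled where the adjusted p is under 0.05 and open where it is not. Hhip is filled at 5.55, 6.7 and 6.57 on D4, D8 and D12 against D0 and at -3.76 in ciNSLC against D12. The points of Gli1 in ciNSLC rest on 2 counts, so their fitted size depends on the prior count.

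Against the neural controls, 2 libraries of different origin, none of the 9 genes passed in ciNSLC by edgeR, DESeq2 or limma voom, where 1.53% of 17636 genes passed by edgeR. At an unadjusted p under 0.05 there was 1, Gli3, with 48.7, 44.3 and 57.5 CPM in ciNSLC against 13.4 CPM in SCR029 and 30.1 CPM in priNPC (log2 1.21 ± 0.4, adjusted p = 0.17 by edgeR). Gli1 had 2 counts in ciNSLC and 16 in the controls, a ratio of 0.101 (95% counting interval 0.0113 to 0.431). Hhip had 0 counts in SCR029, which allows up to 0.0665 CPM before TMM scaling, and 1.72 CPM in priNPC. Ptch1 was at 109 to 134 CPM in ciNSLC, against 187 CPM in SCR029 and 173 CPM in priNPC.

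Against D0, the neural controls had lower Gli3 and Boc and higher Ptch1. Gli3 fell to 13.4 CPM in SCR029 and 30.1 CPM in priNPC, against 148 and 115 CPM at D0 (log2 -2.6 ± 0.45, adjusted p = 0.00091). Boc had 4.32 CPM in SCR029 and 6.97 CPM in priNPC, against 37.6 and 57.3 CPM at D0 (log2 -3.07 ± 0.78, adjusted p = 0.011). Ptch1 showed a log2 change of 3.07 ± 0.89 (SE, adjusted p = 0.022), all by edgeR's quasi-likelihood test. These 3 of 9 compare with 23.9% of all genes (10.1% higher and 13.8% lower). The call of Gli3 was kept in all 27 alternative fits. That of Boc was lost without D0 replicate 2 (adjusted p = 0.054) and that of Ptch1 without either D0 library (0.095 and 0.14). The calls of Boc and Ptch1 were also lost with priNPC alone as the control, and that of Ptch1 with no low-count filter (adjusted p = 0.059, edgeR). ciNSLC and the controls were both set against the same D0 libraries.

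Beyond the 9 genes, 54 genes of the pathway in 5 lists were followed. Hedgehog ligands themselves were scarce. Shh, the ligand of the ventral neural tube, had 2.64 CPM in replicate 1 of D12, 1.17 CPM in priNPC and at most 0.309 CPM in any other library, and was too low to be tested in the 14-library fit. Ihh reached 0.0697 CPM at most. Dhh, the third ligand, had 1.73, 0.217 and 0.487 CPM at D12 and 2.28, 2.4 and 0.88 CPM in ciNSLC, against 0.104 and 0.0261 CPM at D0. Every one of these D12 and ciNSLC libraries was above D0, with log2 changes of 3.54 ± 1.02 at D12 (adjusted p = 0.043) and 4.72 ± 1.06 in ciNSLC (adjusted p = 0.0049, edgeR), the D12 call lost in 13 of 26 alternative fits. Of the 8 genes for ligands and their release, 5 were tested among D0, the treated days and ciNSLC. By edgeR none passed at D4 or D8, with 1 at an unadjusted p under 0.05 on each day, and Dhh alone passed at D12. By the same test 7.22%, 7.15% and 10.5% of all genes passed on the 3 days. DESeq2 called 1 lower at D4, and a batch term 1 lower at D4 and 1 higher at D8. In ciNSLC against D0 1 of the 5 was higher and 2 lower by edgeR, where 11.7% of all genes were higher and 16.5% lower. The median log2 change of the 5 was -2.31, beside -0.07 over all genes tested. The 2 lower ones were Hhat, the acyltransferase that palmitoylates Hedgehog proteins (log2 -2.8 ± 0.26, adjusted p = 9.8e-06), and Scube1, of a family that helps release them (log2 -5.26 ± 1.22, adjusted p = 0.0062).

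Other Hedgehog-responsive genes moved in both directions. Mycn, a Myc-family gene, had 0.0625 and 0.339 CPM at D0, 1.51, 1.77 and 1.78 CPM at D4, 6.67, 5.05 and 4.13 CPM at D8 and 9.02, 8.56 and 9.33 CPM at D12. All treated libraries of both batches were above D0, with log2 changes of 3.09 ± 0.62, 4.74 ± 0.66 and 5.5 ± 0.68 on the 3 days (adjusted p = 0.011, 0.0013 and 0.00052 by edgeR). The log2 effect in batch 1 minus that in batch 2 was 2.02 ± 0.44 (SE, adjusted p = 0.039, edgeR), the opposite sign to that of Gli1. Treated levels of Mycn were close in both batches. The D0 level was 0.0625 CPM in batch 1 and 0.339 CPM in batch 2, each from 1 library, and the term carries that difference.

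The ventral progenitor genes Olig2 and Nkx2-2 were higher at D12, most of all in replicate 1. Olig2, which is also among the neural stem markers, had 46, 2.74 and 5.77 CPM at D12 and 231, 288 and 362 CPM in ciNSLC, against 0 and 0.104 CPM at D0. Its log2 change was 8.49 ± 1.74 at D12 (adjusted p = 0.0092) and 12.51 ± 1.92 in ciNSLC (adjusted p = 0.00037) by edgeR's test. Nkx2-2 had 3.34, 0.109 and 0.146 CPM at D12 and 11.9, 11 and 12.6 CPM in ciNSLC, and 0 counts at D0. Set against a floor of 3 counts over the D0 group, it was at least 35-fold higher at D12 (adjusted p = 0.031) and at least 344-fold higher in ciNSLC (adjusted p = 0.0018, edgeR). Both genes were also high in the cortical controls, so neither level is particular to ciNSLC. Olig2 had 293 CPM in SCR029 and 305 CPM in priNPC. Nkx2-2 in the controls was at least 293-fold higher than at D0 (adjusted p = 0.0019, edgeR). The D12 calls rest on both D0 libraries: without D0 replicate 1 or 2, adjusted p was 0.079 and 0.052 for Olig2 and 0.16 and 0.14 for Nkx2-2 (edgeR). With limma voom it was 0.07 and 0.089 for Olig2 and Nkx2-2. Over the alternatives the log2 change of Olig2 at D12 ran from 5.34 to 12.46. Of the counts of Nkx2-2 at D12, 133 were in replicate 1, and 4 and 6 in the other libraries. Replicate 1 of D12 held the highest Olig2 and Nkx2-2 of the treated libraries and the lowest Gli1 of its day. Its neural stem markers summed to 1425 CPM, against 443 and 624 CPM in the other D12 libraries, and their part in the result was not tested.

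In counts, 1 of the 11 responsive genes tested was higher at D4 and at D8 (Mycn) and 5 at D12 (Mycn, Olig2, Nkx2-2, Foxf2 and Ccnd1) by edgeR, with none lower. Over all genes, 3.54%, 4.1% and 5.81% were higher on the 3 days. DESeq2 called 4, 5 and 6 of the 11 higher. The shares over all genes in this paragraph are edgeR's and are no background for DESeq2 counts. Over the alternatives other than leaving a library out, calls over all genes reached 2626, 2738 and 3948 on the 3 days. In the reported edgeR fit they were 1260, 1248 and 1840. The D12 calls of Ccnd1 and Foxf2 were lost in 13 and 10 of 26 alternative fits. Their median log2 change was 1.79, 1.92 and 2.99 on the 3 days, or 1.79, 1.43 and 2.21 with genes at 0 counts set to their bound. In ciNSLC 6 of 11 were higher and 2 lower than at D0, where 11.7% of all genes were higher and 16.5% lower. Beside Olig2 and Nkx2-2, the higher ones included Nkx6-2, another ventral homeobox gene, which had no count at D0 (at least 89.4-fold, adjusted p = 0.0075), and the cyclin gene Ccnd1 (log2 2.49 ± 0.66, adjusted p = 0.013). The lower ones were Foxf1a (log2 -3.25 ± 0.75, adjusted p = 0.006) and Foxf2, forkhead genes of mesenchyme. Foxf2 had 0 counts in ciNSLC and was at least 26-fold lower than at D0 and at least 88.1-fold lower than at D12 (adjusted p = 6.6e-05 and 1.5e-05, edgeR). Against D12, 3 of 11 were higher and 4 lower in ciNSLC, where 11% of all genes were higher and 16.5% lower. Mycn was among the lower ones (log2 -4.56 ± 0.55, adjusted p = 7.9e-05, edgeR). None of the 11 passed by edgeR in ciNSLC against the neural controls, with 3 at an unadjusted p under 0.05, while DESeq2 called 2 higher and 1 lower. By edgeR 3 were higher (Mycn, Olig2 and Nkx2-2) and 2 lower (Foxf1a and Foxf2) in the controls against D0, where 10.1% of all genes were higher and 13.8% lower. Nkx6-1 and Nkx6-2 differed among the ciNSLC libraries, with 16.8, 24.8 and 0.0339 CPM for Nkx6-1 and 4.53, 4.23 and 0.169 CPM for Nkx6-2, so that replicate 3 lay near the control levels of 0.0284 and 0.0477 CPM for Nkx6-1 and 0.142 and 0.0716 CPM for Nkx6-2.

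In the reception, cytoplasmic and ciliary lists, 1, 1 and 0 genes passed on each treated day by edgeR, where 7.22%, 7.15% and 10.5% of all genes passed at D4, D8 and D12. Of 6 other reception genes, 1 was lower on each treated day, Adrbk1 (Grk2), a kinase that acts on Smo. It had 16.4 and 19.9 CPM at D0, 8.81, 9.1 and 10.5 CPM at D4, 9.05, 10.3 and 8.07 CPM at D8 and 10.3, 8.37 and 9.23 CPM at D12, with log2 changes of -0.94 ± 0.24, -0.99 ± 0.24 and -0.96 ± 0.24 (adjusted p = 0.031, 0.025 and 0.021, edgeR). Of 14 intracellular regulators, 1 was lower on each treated day, Rab23, a GTPase that restrains the pathway. It had 63.4 and 81.9 CPM at D0, 34.1, 44.9 and 37.2 CPM at D4, 39.8, 36.7 and 44 CPM at D8 and 32.8, 41.6 and 42.6 CPM at D12, with log2 changes of -0.91 ± 0.2, -0.85 ± 0.2 and -0.9 ± 0.2 (adjusted p = 0.018, 0.024 and 0.015). Treated and D0 libraries were apart for each gene. Both genes lost these calls when replicate 2 of D0, the library with the myeloid markers, was left out (adjusted p 0.14 to 0.2, edgeR), and other libraries also decided them. Without D0 replicate 1 adjusted p was 0.064, 0.056 and 0.052 for Adrbk1 on D4, D8 and D12. The D4 call of Adrbk1 was also lost without D4 replicate 1, 2 or 3 (adjusted p = 0.082, 0.092 and 0.059) or D12 replicate 3 (0.051). Its D8 call was lost without D8 replicate 1 or 3 (0.052 and 0.088), and its D12 call without D12 replicate 2 or 3 (0.082 and 0.071, all by edgeR). Rab23 lost its D4 call without D4 replicate 1 or 3 (0.058 and 0.06) and its D8 call without D8 replicate 1 or 2 (0.055 and 0.085, edgeR). None of the 12 primary cilium transport genes passed on any treated day by edgeR, with 2, 0 and 1 at an unadjusted p under 0.05. DESeq2 called 1 lower at D12, and a batch term 1 lower at D4 and at D12.

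In ciNSLC against D0, where 16.5% of all genes were lower and 11.7% higher, 3 of 6 reception genes were lower, among them Gpc3, a glypican that binds Hedgehog (5.18, 4.18 and 2.67 CPM in ciNSLC against 91.9 and 42.4 CPM at D0, log2 -4.06 ± 0.62, adjusted p = 0.00035). Of the intracellular regulators 3 of 14 were lower, led by Spop, an adaptor of the ubiquitin ligase that degrades Gli proteins (log2 -1.18 ± 0.25, adjusted p = 0.0036). Of the cilium genes 2 of 12 were higher and 2 lower. Arl13b, a ciliary GTPase (log2 -1.31 ± 0.24, adjusted p = 0.0014), and Ift88, a core transport subunit (log2 -1.52 ± 0.38, adjusted p = 0.0099), were lower, and Ift122 (log2 1.09 ± 0.34, adjusted p = 0.029) and the dynein gene Dync2h1 (log2 0.84 ± 0.27, adjusted p = 0.034) higher, all by edgeR's test. None of the 6, 14 and 12 genes of these lists passed in ciNSLC against the neural controls by edgeR, with 1 cilium gene at an unadjusted p under 0.05. DESeq2 and a batch term each called 1 cilium gene lower.

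**Figure D4:**
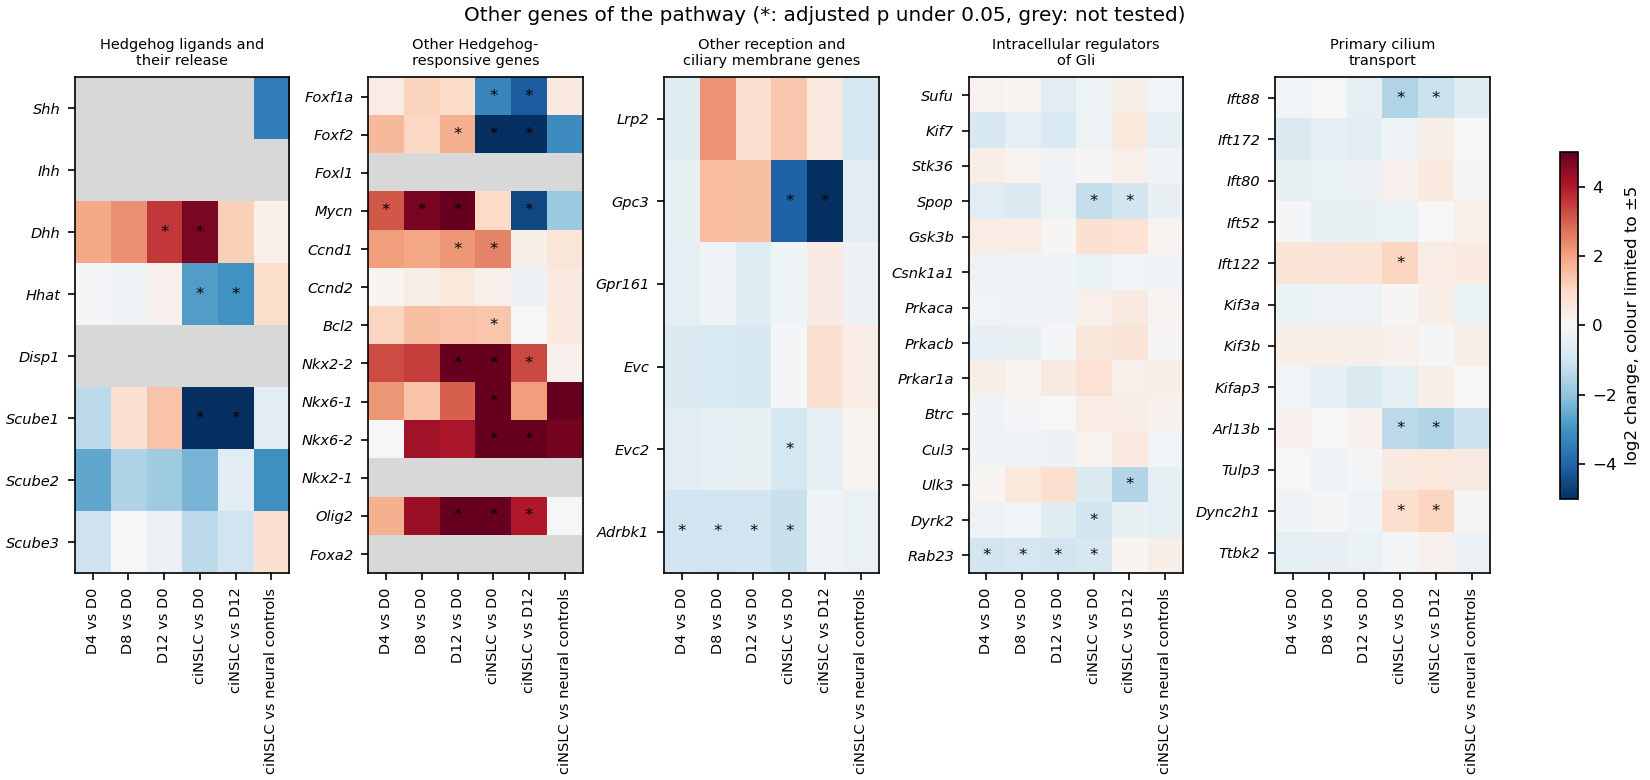
Log2 changes of other genes of the pathway, in 5 lists, for 6 comparisons, with the colour limited to 5 in each direction, a star where edgeR's adjusted p is under 0.05 and grey where the gene was too low to be tested. Mycn carries a star on D4, D8 and D12, at 3.09, 4.74 and 5.5, and the comparison of ciNSLC with the neural controls carries none.

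The genes most like the 3 Gli factors were sought among 11961 named genes by the root mean square difference of their centred log2(CPM + 0.5) profiles over the 16 libraries, a description without a test since the libraries share groups and batches. Among the nearest to Gli1, whose own spread about its mean was 2.61, were Lepr at 0.73, Angptl7 at 1.08, Cbfa2t3 at 1.14 and Wnt2 at 1.14. Lepr is the leptin receptor and Wnt2 a Wnt ligand. Nearest to Gli2, with a spread of 1.22, were Gypc at 0.4, Efnb1 at 0.48, Pkdcc at 0.5, Ikzf4 at 0.52 and Vnn1 at 0.53. Nearest to Gli3, with a spread of 0.8, were Anxa6 at 0.35, Wwp2 at 0.4, Inpp5a at 0.4, Msl3l2 at 0.41 and Stat5a at 0.42.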

How the data were processed

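RNA was measured in 16 mouse libraries made from amplified total RNA. Per the submitters' processing notes, reads were aligned with TopHat2 2.0.13 to mm9 and counted with featureCounts of Subread. The deposited raw counts per gene entered every fit. The deposited feature length, an other unit given in bases, scaled levels compared between genes. Another 48 per-sample columns were not used. Amplification without molecular identifiers means that counts are not independent molecules, so intervals and floors (3 counts, 0.0541 to 0.102 CPM per library) cover counting error only.

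Counts were tested with edgeR 4.0.16 in R 4.3.3 (filterByExpr, TMM scaling, robust quasi-likelihood fit with group as the term, Benjamini-Hochberg adjustment over all genes, threshold 0.05). The fibroblast-derived groups, with 14 libraries, shared a fit (17455 genes, common biological coefficient of variation 0.418). Comparisons with SCR029 and priNPC, coded as 1 control group, used all 16 (17636 genes, 0.441). The SE of a log2 change was derived from the F statistic. The fit was tested on simulated data. Alternatives used DESeq2 1.42.0, limma 3.58.1 (voom), other scalings and filters, a batch term, a replicate block, batch 2 alone, only the groups compared, and each library left out. Levels are CPM with TMM scaling over 16 libraries. Folds against 0 counts use a floor of 3 counts over the group, and ratios on 1 to 3 counts carry exact 95% counting intervals. Nothing in the labels ties replicates to separate cultures, and the p-values then reflect the spread of these libraries, part of which may be technical.

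The members and lists were chosen with earlier results of these data known. All 9 members are described, and from each of 5 pathway lists up to 4 called genes with the lowest p and up to 2 called against the list's direction are named, with the ligands. Nkx6-1 was added after its values were seen, and a gene of these lists is not reported here by name. Of 45 cell type markers 44 were found. Promoter windows come from RefSeq (GRCm38.p6), in which 7 of the 9 members were matched.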

Additional observations from a re-analysis of the deposited data

Results flagged for a closer look

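The treatment effect (D4, D8 and D12 against D0) in batch 1 differed from that in batch 2 for Gli1 among the 9 genes and for 4 of the other pathway genes, by a batch-by-treatment term in edgeR's quasi-likelihood fit that was added after the values were seen. The log2 effect in batch 1 minus that in batch 2 was -6.2 for Gli1 (SE 1.29, adjusted p = 0.034) and -1.48 for Ift88 (SE 0.22, adjusted p = 0.013), both more negative in batch 1. It was 2.02 for Mycn (SE 0.44, adjusted p = 0.039), 3.88 for Nkx2-2 (SE 0.81, adjusted p = 0.037) and 3.59 for Olig2 (SE 0.69, adjusted p = 0.027), all more positive in batch 1. Batch 1 has 1 library in each group, so its own spread is unknown, and batch 2 has 1 D0 library. Each term therefore also carries the difference between the D0 libraries. At D0, Nkx2-2 had 0 counts and Olig2 had 4 in all. Of 17455 genes, 527 passed the same term.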

How the results depend on the processing

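No log2 change examined turned its direction under any alternative. Those examined were of members with an unadjusted p under 0.05 and of pathway genes called by edgeR in the reported fit. Smaller changes were not followed. The number of the 9 genes called at D4 against D0, 1 as reported, was 2 with upper-quartile scaling, a filter at 1 CPM in 2 libraries, a batch term or a replicate block, 0 with no filter, limma voom or only the groups compared, and 5 with DESeq2 or batch 2 alone. At D8 against D0, 2 as reported, it was 1 with voom and 4 in batch 2 alone. For ciNSLC against D0, 4 as reported, it was 2 with no filter. For D8 against D4, D12 against D8 and D12 against D4, 0 as reported, batch 2 alone gave 2, 4 and 2 and DESeq2 0, 1 and 1. For ciNSLC against the neural controls, 0 as reported, batch 2 alone gave 1, and for the controls against D0, 3 as reported, priNPC alone gave 1. With each library left out in turn the counts ran from 0 to 2 (D4 against D0), 0 to 3 (D8 against D0), 1 to 6 (D12 against D0), 0 to 0 (D8 against D4), 0 to 1 (D12 against D8 and D12 against D4), 1 to 6 (ciNSLC against D0), 4 to 5 (ciNSLC against D12), 0 to 0 (ciNSLC against the controls) and 1 to 4 (controls against D0). The cause was not tested. Over all genes, the calls with a library left out, then over the other alternatives, ran from 609 to 1496 and 548 to 2626 (D4 against D0, 1260 as reported), 622 to 1560 and 550 to 2738 (D8 against D0, 1248), 791 to 2225 and 898 to 3948 (D12 against D0, 1840), 0 to 67 and 1 to 578 (D8 against D4, 28), 3 to 89 and 6 to 1492 (D12 against D8, 28), 195 to 861 and 573 to 2894 (D12 against D4, 675), 3426 to 5265 and 4252 to 6403 (ciNSLC against D0, 4925), 3001 to 5845 and 4070 to 8148 (ciNSLC against D12, 4808), 109 to 321 and 23 to 2148 (ciNSLC against the controls, 270) and 2628 to 4524 and 1498 to 5781 (controls against D0, 4222). Whether the replicate numbers pair the samples is not stated. The correlations of same-numbered deviations were 0.1 to 0.65 for number 1, which marks batch 1, 0.01 to 0.35 for number 2 and 0 to 0.39 for number 3. Differently numbered batch 2 libraries of different groups gave -0.02 to 0.53, so these values do not set same-numbered libraries apart. For number 1, batch and a pairing cannot be told apart. With the replicate block, the call of Ptch1 in ciNSLC against D0 was lost (adjusted p = 0.056), as were those of Foxf2 and Ccnd1 at D12 (0.055 and 0.056) and Ift88 in ciNSLC against D12 (0.052), and Boc at D4 and Gli1 in ciNSLC against D0 were gained (0.0051 and 0.018, edgeR). No paired analysis was possible for the neural controls because each is 1 library of a source of its own. A batch term gained Gli2 in the controls against D0 (adjusted p = 0.043, edgeR). Depth limits Gli1 in ciNSLC, and Shh and Ihh in most libraries, which lay near the floor of 3 counts.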
